A study of Rattus norvegicus with 28 samples.

Results

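The genes for voltage-gated sodium and calcium channels were followed through 8 weeks of spinal cord injury (SCI) in the rat. Members were all genes of the array annotation whose name begins with Scn and a digit, or with Cacn, which gave 14 sodium channel genes and 26 calcium channel genes, 40 of the 35469 genes and other features measured. They were measured by 53 different probes on 62 spots, and 11 of them had 2 or more probes, which were averaged. The tissue was 1.5 cm of spinal cord around the lesion, without dura, from adult female Sprague Dawley rats, hybridised to 28 single-dye Agilent whole-genome arrays, 4 for each of 7 groups. T0 is called sham in the labels and uninjured in the methods, so which of these it was cannot be told apart. T1, T2, T4 and T8 were taken 1, 2, 4 and 8 weeks after a severe contusion of 250 kdyn at the eighth thoracic level. T1_NPC rats received neural progenitor cells (NPC), grown as floating spheres from injured adult rat cords, directly after the injury and were killed at 1 week. T2_NPC rats received such cells 1 week after the injury and were killed at 2 weeks, and the injured rats without cells received medium according to the methods. The methods give the immunosuppressant FK-506 (tacrolimus) to all animals, beginning the day before the cells, without saying when it began in rats that received none. The labels number the 4 samples of a group and the methods treat them as separate animals. The tissue holds neurons, glia, blood vessels, invading immune cells and, in 2 of the groups, possibly grafted cells, so the arrays give an average over all of them.

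Voltage-gated sodium channels carry the upstroke of the action potential and are concentrated at the axon initial segment and at the nodes of Ranvier. Each has a large pore-forming alpha subunit (Scn1a to Scn11a) and smaller beta subunits (Scn2b, Scn3b and Scn4b among them) that tune gating and act as adhesion molecules. Voltage-gated calcium channels turn depolarisation into calcium entry, which drives transmitter release at terminals and signals to the nucleus from the soma. Their alpha-1 subunit (Cacna1) forms the pore, the alpha-2-delta (Cacna2d) and beta (Cacnb) subunits bring it to the membrane, and several of the gamma genes (Cacng) encode proteins that traffic AMPA receptors rather than calcium channels.

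A level is here the log2 intensity of the deposited, quantile-normalized value table, and a difference of 1 is a factor of 2. Levels are compared between groups for the same gene, not between genes, since probes differ in brightness. Between 74.5% and 82.7% of the spots of an array were well above background, and 29 of the 40 members were so on all 28 arrays. For 16 of the 28 arrays the value column has the exact rank order of a scan deposited under another sample (Spearman rho of 1, at most 0.993 for any other scan), so the sample of those arrays is disputed. The values below take the sample from the value table. With the 12 undisputed arrays 25 members were lower than T0 at T2 and 29 at T8. At T1 and T4, with 1 array each, the median change over members was -0.68 and -0.93. The median over all features was -0.08 and -0.07. With the scans under the samples they were deposited with, 0 members were lower at any of the 4 times. There 0, 1, 0 and 0 of all features were called in order of time. At T2 and T8 the undisputed arrays called 11901 and 13314 of all 35469 features, of which 55.7% and 52.4% were lower. The undisputed time-course arrays are those of the first of 3 scan sessions, and they hold 1 array each of T1 and T4, which the fit takes to vary like the other groups. The T1_NPC arrays, all 4 disputed, filled a slide of their own and so did the T2_NPC arrays, both in the third session, so that slide, session and transplantation cannot be told apart.

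Most channel genes fell after SCI and stayed low. At T1, 27 of the 40 members were lower than T0 and 1, Scn7a, was higher, by a limma fit over all arrays at a Benjamini-Hochberg adjusted p under 0.05, where 44.1% of all features were called (25.1% lower and 19.1% higher). The counts were 30 lower and 2 higher at T2 (40.0% of all features called, 22.2% lower and 17.7% higher). They were 29 and 2 at T4 (38.5%, 21.0% and 17.5%), and 28 and 1 at T8 (39.7%, 21.5% and 18.2%). The median log2 change over the 40 members was -0.86 for T1 and -1.10 for T2, and -0.83 and -0.92 for the later times, while the median over all features lay between -0.10 and -0.04. These 4 comparisons share the T0 arrays and are not independent of each other. Of the members, 26 were lower at all 4 times, or 65.0%, beside 15.9% of all features. With the probes of each gene averaged, Scn7a, which had 1 probe, was the only member higher at all 4 times, a pattern found in 12.3% of all features. The T0 and injured arrays did not overlap in 24 of the 27 genes that were lower at T1 and in 25 of the 28 at T8. These genes had already been picked as lower from the same arrays, and the share over all features was not counted.

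The fall ran through both families. Of the 14 sodium channel genes, 11 fell at T1 with a median over the family of -1.07, and 11 at T8 with a median of -1.06. Of the 26 calcium channel genes, 16 fell at T1 (family median -0.75) and 17 at T8 (-0.78), none rose at any time and 8 were called at no time. This rests on the average of probes, since the Cacna1s probe that was above background after injury was higher at all 4 times and the other Cacna1s probe was not. The plot of log2 changes against T0 shows most genes below the line already at 1 week, with little movement afterwards.

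**Figure D1:**
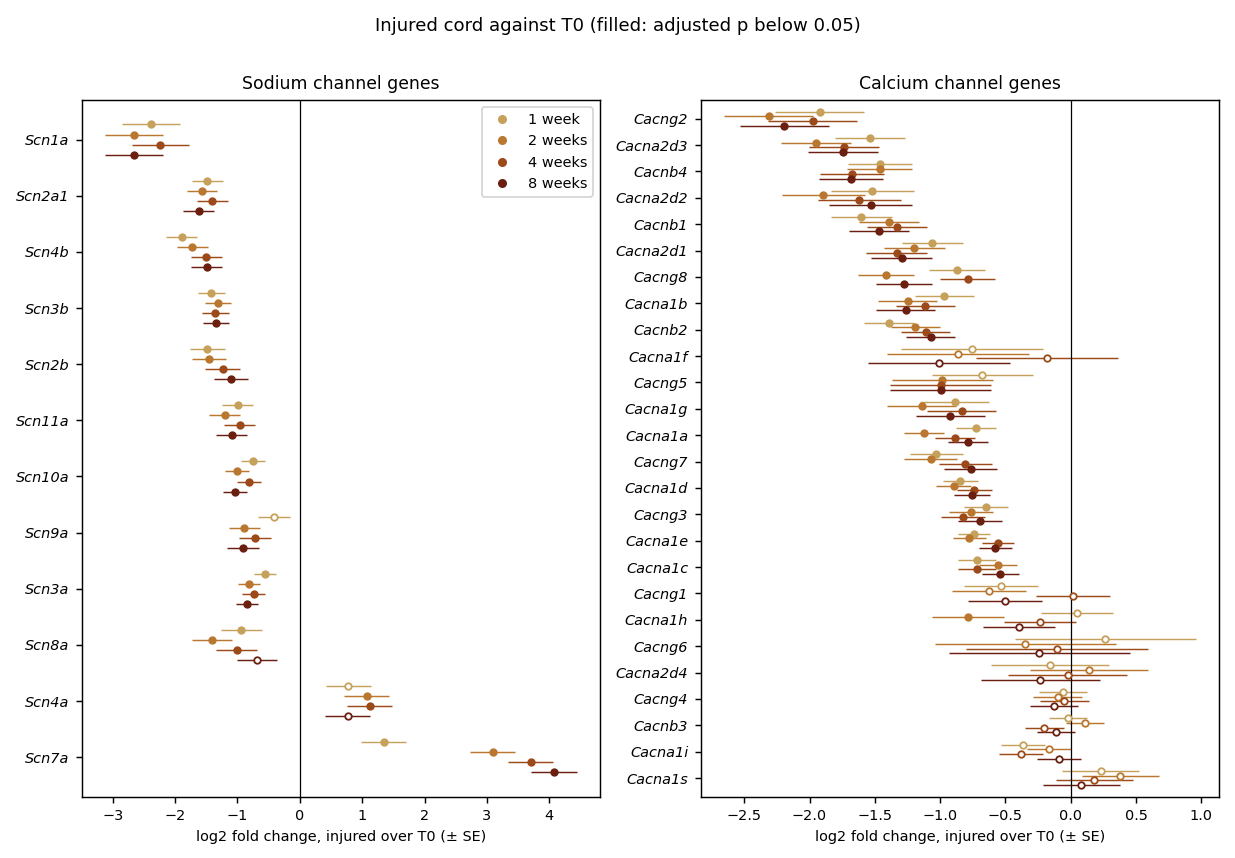
Log2 change against T0 (x axis, log2 units; bars are the standard error of the limma fit) of 38 of the 40 channel genes at T1, T2, T4 and T8, 4 arrays a group; filled points were called at an adjusted p under 0.05. Scn1a and Cacng2 lie furthest to the left and Scn7a, which reached 4.08 at T8, furthest to the right.

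Neuronal RNA of other kinds fell in the same arrays. Of 14 neuronal marker genes on the array, 13 were lower at T1 (median -1.67) and 13 at T8 (median -1.76), among them Snap25, a fusion protein of synaptic terminals (-2.32 at T1), and Slc6a5, the glycine transporter of inhibitory terminals (-2.20). The summed level of this list ran from 18.42 to 18.84 in the T0 arrays, from 16.54 to 17.48 at T1 and from 16.58 to 17.15 at T8, without overlap, and all of its genes were above background. The 9 microglia and macrophage genes all rose (median 2.55 at T1, summed level 14.65 to 14.93 at T0 and 18.19 to 18.47 at T1). Of 10 oligodendrocyte genes 7 fell at T1, and of 8 astrocyte genes 4 fell and 1 rose. The part of these shifts in the channel results was not tested. In bulk tissue fewer neurons and less channel RNA per neuron cannot be told apart.

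Among the sodium channel alpha subunits, Scn1a fell furthest. Scn1a encodes Nav1.1, the channel that supports fast firing of inhibitory interneurons. Its level was 11.87, 11.45, 11.49 and 11.36 in the 4 T0 arrays, 9.78, 9.01, 9.77 and 8.06 at T1, and 8.78, 8.85, 8.93 and 8.98 at T8. Every injured array lay more than 1 unit below every T0 array, the T1 arrays were spread out and the T8 arrays were close together. The change was -2.38 ± 0.46 (SE, n = 4 against 4, limma adjusted p = 1.74e-04) at T1, a 5.22-fold fall, and -2.66 ± 0.46 (adjusted p = 5.71e-05) at T8, a 6.31-fold fall. At T2 the 4 arrays ran from 7.86 to 9.98 (change -2.65) and at T4 from 8.68 to 10.02 (change -2.24). With the undisputed arrays the changes of Scn1a were -1.89, -1.84, -1.66 and -2.76 in order of time, of which those at T1 (adjusted p = 0.0644, on 1 T1 array) and T4 (0.105, on 1 T4 array) were not called. With the scans under their deposited samples it was -0.78 at T1 and -1.58 at T8, neither called.

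Scn2a1, the array's name for Scn2a and the Nav1.2 channel of unmyelinated axons, read 11.45, 11.56, 11.30 and 11.51 at T0, 10.22, 9.83, 10.47 and 9.36 at T1, and 9.82, 9.83, 9.79 and 9.89 at T8. All injured arrays again lay below all T0 arrays. The fall was 2.80-fold at T1 (-1.49 ± 0.25, adjusted p = 2.73e-05) and 3.08-fold at T8 (-1.62 ± 0.25, adjusted p = 1.05e-05), and both of its probes fell, by 1.72 and 1.25 at T1. Scn3a, the Nav1.3 channel that is abundant before birth, fell by 0.56 ± 0.18 at T1 and by 0.84 ± 0.18 at T8, and its call at T1 was lost without T0 replicate 1 (-0.45, adjusted p = 0.0604) or T1 replicate 4 (-0.40, 0.0784). Scn8a encodes Nav1.6, the main channel of mature nodes of Ranvier. It was lower at T1 (-0.94 ± 0.32, with overlapping arrays), T2 (-1.41) and T4 (-1.01) but was not called at T8 (-0.68, adjusted p = 0.102). The T1 call was lost without T0 replicates 1 (-0.69, 0.104) or 3 or T1 replicates 3 or 4, and the T4 call without T0 replicate 1 (-0.77, 0.0794). The Scn8a probe that was above background on all 28 arrays was lower at all 4 times, by 1.47, 1.97, 1.32 and 1.54, while the other was above background on none, so the gene average understates what the measured probe shows.

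Alpha subunits known best from the peripheral nervous system fell as well. Scn10a and Scn11a, the Nav1.8 and Nav1.9 channels of nociceptive sensory neurons, fell at all 4 times, Scn10a by 0.74 at the smallest (T1) and Scn11a by 0.96 at the smallest (T4). Scn9a, the Nav1.7 channel of the same neurons, was lower at T2 (-0.89), T4 (-0.72) and T8 (-0.91) but not called at T1 (-0.42, with arrays that overlapped). Its call at T4 was lost without any of T0 replicates 2, 3 and 4 or T4 replicate 1 (adjusted p between 0.0510 and 0.0770). Of 8 marker genes of dorsal root ganglion sensory neurons, 4 fell and 1 rose at T1 (median -0.52, summed level 15.95 to 16.21 at T0 and 14.80 to 15.57 at T1). The part of such neurons in the Scn9a, Scn10a and Scn11a values was not tested.

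Scn7a moved the other way. It encodes Nax, a channel relative that opens with extracellular sodium rather than with voltage and is known from glia of the sodium-sensing brain regions and from non-myelinating Schwann cells. Its level was 8.00, 8.16, 7.70 and 7.27 at T0, 8.70, 9.46, 9.41 and 8.94 at T1 and 11.39, 9.99, 10.75 and 11.37 at T2. It was 11.33, 11.16, 11.71 and 11.73 at T4 and 11.72, 11.89, 12.49 and 11.34 at T8. T0, T1 and T2 arrays did not overlap, whereas T2, T4 and T8 arrays did. Against T0 the level was 2.54-fold higher at T1 (1.34 ± 0.36, adjusted p = 0.00397), 8.52-fold at T2 (3.09 ± 0.36, 3.71e-07) and 13-fold at T4 (3.70 ± 0.36, 3e-08), and reached 16.9-fold at T8 (4.08 ± 0.36, 5.29e-09). The undisputed arrays gave 0.85 for T1 (adjusted p = 0.338, not called, on 1 T1 array) and 2.52, 3.89 and 3.76 for the later times, all 3 called. The second scan session gave 1.55, 3.66, 3.68 and 4.39, all called. With the scans under their deposited samples it was 0.65 at T1 and 2.05 at T8, neither called.

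Scn7a was also the only member called between injured groups without cells. It rose by 1.75 ± 0.36 from T1 to T2 (adjusted p = 0.0133, 95% interval 0.99 to 2.50), where 1.48% of all features were called, and by 2.73 ± 0.36 from T1 to T8 (adjusted p = 1.52e-05), where 9.87% were. The step from T1 to T2 was not called without T1 replicate 1 (1.60, adjusted p = 0.0554) or T2 replicate 1 (1.57, 0.0714), nor within the first scan session (1.67, 0.347, on 1 T1 array), and was called within the second (2.11, 0.0352). The step from T1 to T8 was likewise not called within the first session (2.92, 0.0623), where Cacnb4 was called lower instead (-1.10, 0.0497), and was called within the second (2.83, 0.00204). The step from T1 to T2 was not called either when the fit held the T1 and T2 arrays alone. From T2 to T4 and from T4 to T8 0 of the 40 members were called, in comparisons that called 0.0761% and 0.0902% of all features.

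Scn7a lies beside sodium channel genes that fell. The probes of Scn3a, Scn2a1, Scn1a, Scn9a and Scn7a start in this order on chromosome 3 of rn4, the build of the array annotation, at 47496272, 47722600 (and 47720286 for the second Scn2a1 probe), 48239066, 48442413 (and 48438851 for the second Scn9a probe) and 48633684. The first 4 genes of this run were lower than T0 at T2, T4 and T8, and the last was higher. On chromosome 8, Scn10a and Scn11a, with probe starts at 124578444 and 124724572, both fell. To let the neighbours be compared, the 250 bases before the start of Scn7a (chr3:71846285-71846534, minus strand) and of Scn2a1 (chr3:70710706-70710955, plus strand) are given from the RefSeq annotation of GRCr8, 5′ to 3′ in the direction of the gene, with capitals for the GC box GGGCGG or its reverse complement.
Scn7a: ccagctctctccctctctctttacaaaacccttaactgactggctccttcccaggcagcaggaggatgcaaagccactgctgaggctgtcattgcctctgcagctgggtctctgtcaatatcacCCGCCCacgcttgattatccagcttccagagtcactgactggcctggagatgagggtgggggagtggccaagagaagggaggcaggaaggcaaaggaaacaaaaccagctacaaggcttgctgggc
Scn2a1: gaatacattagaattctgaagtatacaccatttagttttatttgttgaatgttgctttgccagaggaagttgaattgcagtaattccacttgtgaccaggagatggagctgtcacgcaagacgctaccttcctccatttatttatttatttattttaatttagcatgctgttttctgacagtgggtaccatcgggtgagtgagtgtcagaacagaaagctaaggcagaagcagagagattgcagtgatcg

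The Scn7a window held 1 GC box and 56.0% G and C, and the Scn2a1 window none and 39.6%. All 40 members matched a current gene symbol, and 27 of them had a promoter window in the RefSeq table, with 30 windows in all. GGGCGG on either strand was found in 15 of these 30 windows, and in 10 of the 21 windows of members that were lower at all 4 times, beside 30.5% of all 33469 windows. The member windows were also richer in G and C, with a median of 63.0% beside 51.2% over all windows. The part of this in the GGGCGG matches was not tested. TATAAA was found in 2 of 30 (12.9% of all windows), TGACG, the core of the cAMP response element, in 5 (18.2%) and the E-box CACGTG in 0 (5.59%). The 5 windows with TGACG belonged to Cacna1b, Cacna2d1, Cacna1c, Scn10a and Cacnb2, all of which were lower at all 4 times, as were the members of 21 of the 30 windows. A match of letters is a description of the window only.

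Most Schwann cell genes rose in the same arrays as Scn7a, but not all. Of 8 such genes 5 rose and 2 fell at T1, and 6 rose and 1 fell at T8. Prx, periaxin of myelinating Schwann cells, was higher by 1.92, 4.19, 5.16 and 5.33 in order of time. It also rose from T1 to T2 (by 2.27, adjusted p = 0.0125), as Scn7a did. Egr2 rose by 3.68 and Ngfr by 2.06 at T1, and neither was called from T1 to T2. The 2 that fell at T1 were Mal, a myelin gene also of oligodendrocytes (-1.34), and Cdh19, a cadherin of Schwann cells (-0.74). The summed level of the list was 13.36 to 13.78 at T0, 13.61 to 14.22 at T1 and 14.93 to 15.47 at T8, so that T0 and T1 overlapped. From T1 to T8, over which Scn7a rose as well, 4 of the 8 Schwann cell genes and 5 of the 8 astrocyte genes were higher and none was lower, with medians of 0.58 and 0.71. The summed astrocyte level was 17.25 to 17.37 at T0, 16.43 to 16.80 at T1 and 17.29 to 17.45 at T8. The part of Schwann cells and astrocytes in the Scn7a rise was not tested.

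**Figure D2:**
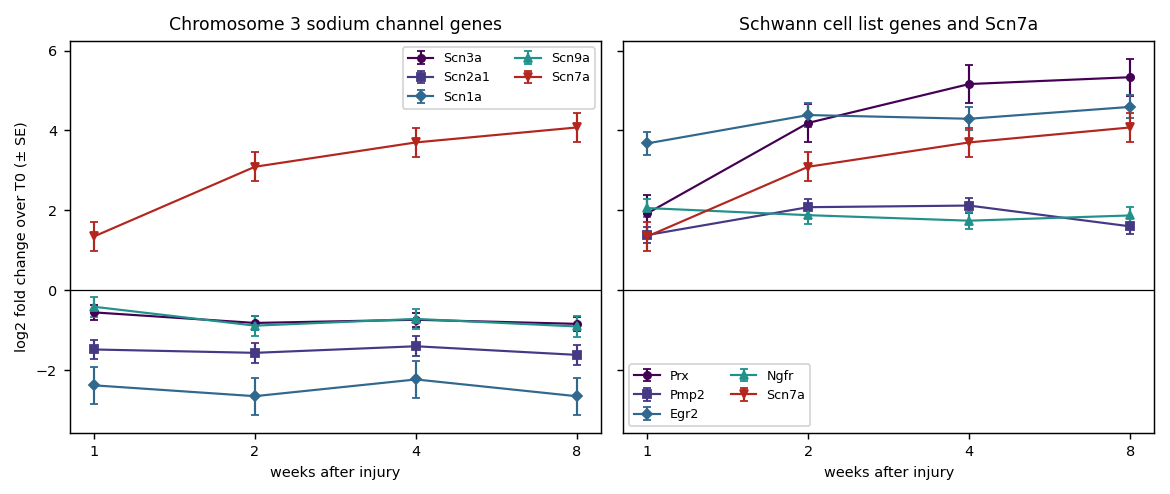
Log2 change against T0 (y axis, log2 units; bars are the standard error of the limma fit) over weeks after injury (x axis, time points evenly spaced), left for the 5 sodium channel genes of chromosome 3 and right for Scn7a and 4 Schwann cell genes. Scn7a climbed from 1.34 at T1 to 4.08 at T8 while its 4 neighbours lay below 0.

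Scn4a, the skeletal muscle channel Nav1.4, was well above background on 0 T0 arrays and on 4 of the 28 arrays in all. It read 1.35, 3.49, 2.82 and 2.63 at T0 and 3.23, 3.75, 3.78 and 2.64 at T1. The T2 arrays ran from 3.46 to 3.82. The T4 arrays gave 3.44, 4.29, 3.44 and 3.61, and the T8 arrays 3.16, 4.07, 2.32 and 3.82. These values overlap between groups. It was called higher at T2 (adjusted p = 0.0209) and T4 (0.0165), but at T2 no array of either group was above background, and at T4 only replicate 2 was, so neither call has a fold. The call at T2 was lost without T0 replicate 1, and that at T4 without T0 replicate 1 or T4 replicate 2. Of 14 skeletal muscle genes 4 were higher and 6 lower at T1, Ckm, Myh4 and Myl1 were above background on no T2 or T4 array, and the summed level was lower after injury (13.93 to 14.49 at T0, 11.83 to 12.58 at T1).

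The sodium channel beta subunits described here fell at all 4 times. Scn4b, which is linked covalently to the alpha subunit and supports resurgent current, read 11.58, 11.39, 11.48 and 11.52 at T0, 10.06, 9.44, 9.97 and 8.93 at T1, and 9.98, 9.76, 10.15 and 10.10 at T8. The injured arrays all lay more than 1 unit below the T0 arrays. The change was -1.89 ± 0.25 at T1 (adjusted p = 1.51e-06, 3.71-fold lower) and -1.50 ± 0.25 at T8 (adjusted p = 3.63e-05), and -1.47, -1.38, -1.23 and -1.60 at the 4 times with the undisputed arrays, all called. Scn2b, the other covalently linked beta subunit, changed by -1.48 ± 0.28 at T1 and -1.10 ± 0.28 at T8. Scn3b changed by -1.42 ± 0.21 and -1.34 ± 0.21.

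**Figure D3:**
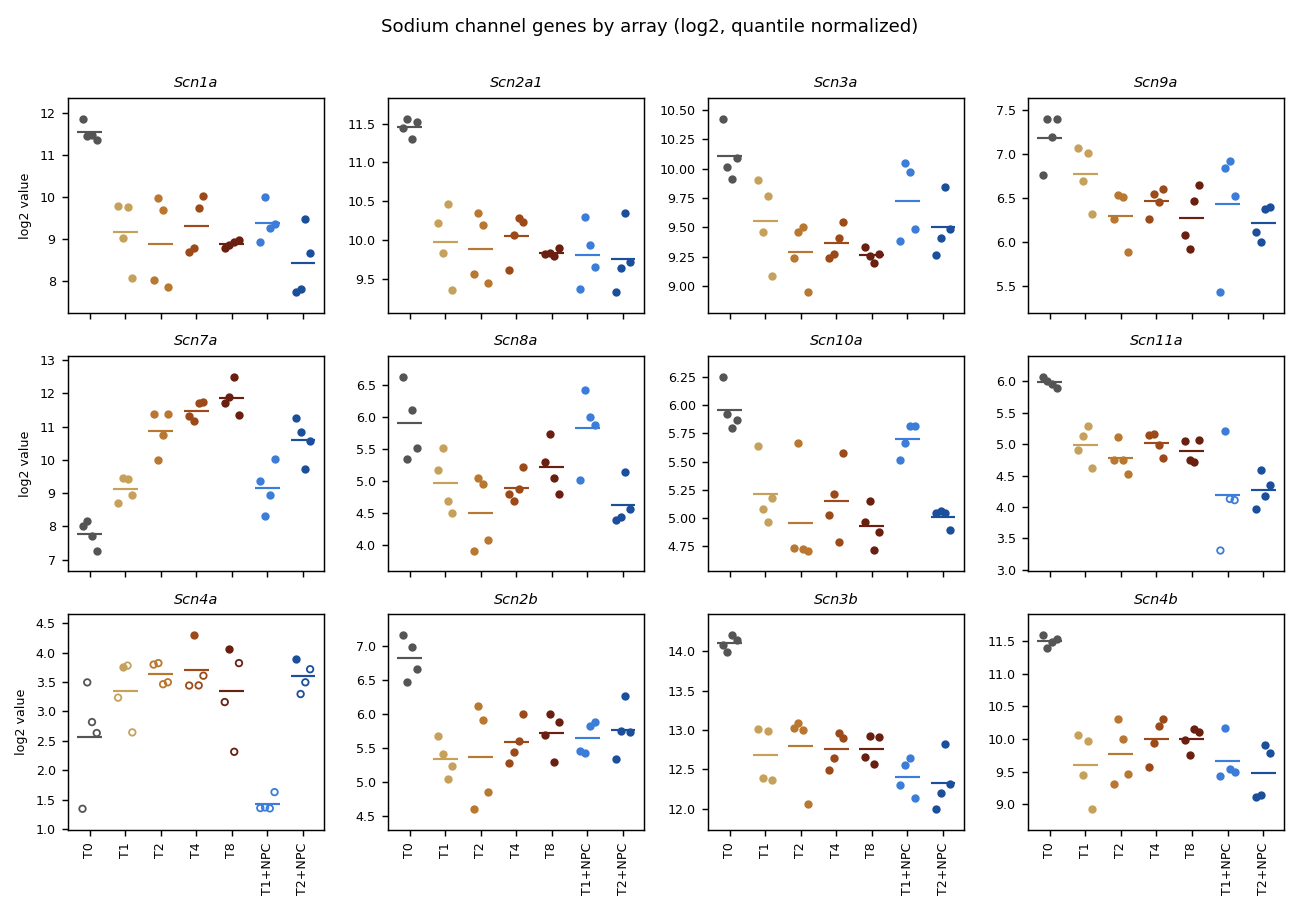
Log2 level (y axis) of 12 of the 14 sodium channel genes on each of the 28 arrays, by group; points are arrays, bars are group means, and open circles were not well above background. All injured arrays of Scn1a, Scn2a1 and Scn4b lie below the T0 arrays, all those of Scn7a above them, and Scn4a is drawn mostly in open circles.

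Among the calcium channel alpha-1 genes, those of presynaptic channels and 2 of the 4 L-type genes fell. Cacna1a (P/Q type) changed by -0.73 ± 0.16 at T1 and -0.79 ± 0.16 at T8, and Cacna1b (N type, with Cacna1a the main source of calcium for transmitter release) by -0.97 ± 0.23 and -1.26 ± 0.23. The Cacna1b probe that was above background on all arrays fell by 1.58 at T1, and the other, above background on 11 arrays, by 0.36 without a call. Cacna1e (R type) fell by between 0.56 and 0.78 over the 4 times. Of the L-type genes found in neurons, Cacna1d fell by between 0.74 and 0.90. Cacna1c fell by between 0.54 and 0.72 as the average of 2 probes, of which 1 was above background on no array, and the measured probe alone fell by between 0.60 and 0.76.

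Of the low-voltage-activated T-type genes, which set burst firing, only Cacna1g was called throughout. Cacna1g fell at all 4 times (-0.89 ± 0.26 at T1, -1.14 at T2, -0.83 at T4, -0.92 at T8), with arrays that overlapped T0 at T1, T4 and T8. Its call at T4 was lost without T0 replicate 2 (-0.66, adjusted p = 0.0655), T0 replicate 4 (-0.62, 0.0705) or T4 replicate 4 (-0.61, 0.0724), and within the first scan session its T1 change was -0.69 (0.0610). Cacna1h was lower at T2 alone (-0.79 ± 0.28, adjusted p = 0.0259), from 6.42, 7.25, 6.68 and 8.14 at T0 to 6.07, 6.67, 6.39 and 6.21 at T2. These overlapped, the change was -0.45 (adjusted p = 0.151) without T0 replicate 4, the highest array, and the call was also lost without T0 replicate 2 or T2 replicates 1 or 4. Cacna1i was called at none of the 4 times, with changes between -0.38 and -0.09. Without T8 replicate 3, its highest array (6.05), it was called lower at T1 (adjusted p = 0.0314) and T4 (0.0277). That the T-type genes differ from each other was not tested.

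Cacna1s and Cacna1f, the L-type genes of skeletal muscle and retina, were called at no time. Cacna1f was above background on 0 of 28 arrays. Cacna1s was above background on 0 T0 arrays (3.70, 3.66, 3.44 and 3.43, as an average of 2 probes) and on all 4 T1 arrays (3.53, 3.53, 3.78 and 4.31). The T0 and T1 arrays overlapped in this average. The probe that carried this signal, above background on 22 arrays, was called higher at all 4 times (1.13, 1.22, 0.72 and 0.67), and the other, above background on 1, at none.

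Of the 4 alpha-2-delta subunits, 3 fell. Cacna2d3 read 9.37, 9.41, 9.23 and 9.78 at T0, 8.00, 7.59, 8.18 and 7.88 at T1, and 8.14, 7.04, 8.00 and 7.63 at T8. These injured arrays lay more than 1 unit below all T0 arrays, as did those of T2 and T4, but T1_NPC replicate 2 (9.46) lay within the T0 range. The change was -1.54 ± 0.27 at T1 (adjusted p = 5.35e-05, 2.90-fold lower), -1.95 at T2, -1.73 at T4 and -1.74 ± 0.27 at T8. Cacna2d2, which like Cacna2d1 binds gabapentin, changed by -1.52 ± 0.32 at T1 and -1.53 ± 0.32 at T8, and Cacna2d1, the subunit known to rise in sensory neurons after peripheral nerve injury, by -1.06 ± 0.23 and -1.29 ± 0.23. Cacna2d4 was above background on 1 of 28 arrays and was called at no time. The Cacna2d3 probe, shown because its annotated span covers an intron and so it reads spliced RNA, lies on the minus strand at chr16:4238455-4247999 of rn4, 60 bases spread over 9545.
Cacna2d3 probe: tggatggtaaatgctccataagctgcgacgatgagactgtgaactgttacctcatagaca

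Of the 4 calcium channel beta subunits, which carry the alpha-1 subunit to the membrane, 3 fell and Cacnb3 was called at no time. Cacnb1 read 11.05, 10.77, 11.10 and 10.85 at T0, 9.91, 9.02, 9.62 and 8.81 at T1, and 9.46, 9.57, 9.22 and 9.65 at T8. Cacnb4 read 8.24, 7.99, 8.12 and 7.90 at T0, 7.42, 6.02, 6.86 and 6.10 at T1, and 6.52, 6.37, 6.36 and 6.28 at T8. In both the T0 and injured arrays were apart. Cacnb1 changed by -1.60 ± 0.23 at T1 (adjusted p = 4.80e-06, 3.04-fold lower) and -1.47 ± 0.23 at T8, and Cacnb4 by -1.46 ± 0.25 (adjusted p = 3.53e-05) and -1.68 ± 0.25. Cacnb2 changed by -1.39 ± 0.19 and -1.07 ± 0.19. For Cacnb3 the changes were -0.02, 0.11, -0.20 and -0.11, none called, with 95% intervals from -0.32 to 0.28 at T1 and from -0.42 to 0.19 at T8. The T1 interval of Cacnb3 lies above those of Cacnb1 (-2.08 to -1.12), Cacnb2 (whose change was -1.39 ± 0.19) and Cacnb4 (-1.97 to -0.95), although the difference itself was not tested.

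Cacng2 had the second largest fall of all members at T1 and T8. It encodes stargazin, which carries AMPA receptors to the synapse. Its level was 10.86, 11.47, 10.86 and 11.72 at T0, 9.45, 9.05, 9.88 and 8.85 at T1, and 9.17, 8.46, 9.56 and 8.94 at T8. The lowest T0 array lay above the highest injured one. The change was -1.92 ± 0.34 at T1 (adjusted p = 6.27e-05, 3.79-fold lower), -2.31 at T2, -1.97 at T4 and -2.19 ± 0.34 at T8 (adjusted p = 1.44e-05, 4.57-fold lower), and between -1.40 and -2.15 with the undisputed arrays, all called. The other genes of this AMPA receptor group that fell at all 4 times were Cacng3 (-0.65 ± 0.17 at T1), Cacng8 (-0.87 ± 0.21) and Cacng7 (-1.03 ± 0.20). Cacng8 arrays overlapped T0 at T1 and T4, and its T1 change within the first scan session was -0.45 (adjusted p = 0.392). Cacng4, also of this group, was called at no time, with changes from -0.13 to -0.05.

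The promoters of Cacng2 and Cacng3 are shown for their contrast in composition, and the Cacng2 probe because it too spans an intron (chr7:115930348-116037674 of rn4, minus strand, 60 bases over 107327). The windows are the 250 bases before the start in GRCr8, chr7:111577758-111578007 on the minus strand and chr1:186632312-186632561 on the plus strand. Capitals mark the TATA box TATAAA, the GC box named above and TTCAGCACC, the left part of the element bound by REST, a repressor of neuronal genes outside neurons, on either strand.
Cacng2: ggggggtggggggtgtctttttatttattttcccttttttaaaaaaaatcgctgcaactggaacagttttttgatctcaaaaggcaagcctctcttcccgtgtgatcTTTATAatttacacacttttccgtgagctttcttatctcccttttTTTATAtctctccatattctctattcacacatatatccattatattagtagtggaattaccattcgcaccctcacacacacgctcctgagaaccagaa
Cacng3: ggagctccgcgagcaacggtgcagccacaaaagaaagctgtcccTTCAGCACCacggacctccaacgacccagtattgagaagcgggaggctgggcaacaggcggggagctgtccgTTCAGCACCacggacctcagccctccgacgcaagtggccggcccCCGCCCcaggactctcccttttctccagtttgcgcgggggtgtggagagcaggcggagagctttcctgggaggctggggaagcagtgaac
Cacng2 probe: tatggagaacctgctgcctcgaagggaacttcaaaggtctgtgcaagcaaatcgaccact

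The Cacng2 window was the poorest in G and C of the 30 member windows (38.4%, against a median of 63.0%) and held TATAAA on the reverse strand 2 times. The Cacng3 window held TTCAGCACC 2 times, and no other member window held it, beside 0.305% of all windows. No 2 marked matches overlapped in the windows printed.

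The remaining gamma genes gave little signal. Cacng5 was above background on 0 of 28 arrays, so that its calls at T2, T4 and T8 (changes near -1, adjusted p from 0.0433 to 0.0458, overlapping arrays) describe background. Cacng1, the gamma subunit of skeletal muscle, was above background on 8 arrays and on 0 T0 arrays, and was called at no time, though lower at T1, T2 and T8 when T1_NPC replicate 1 was left out (adjusted p from 0.0136 to 0.0474). Cacng6 was above background on 19 arrays and varied from 2.53 to 6.47 within T0, and was also called at no time. On chromosome 1 Cacng6, Cacng8 and Cacng7 follow each other (rn4 probe starts 64059043, 64069079 and 64114273), of which the last 2 fell. On chromosome 10 Cacng1, Cacng4 and Cacng5 do (97105946, 97139702 and 97301189). In the fit over all arrays none of these was called at a level above background.

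**Figure D4:**
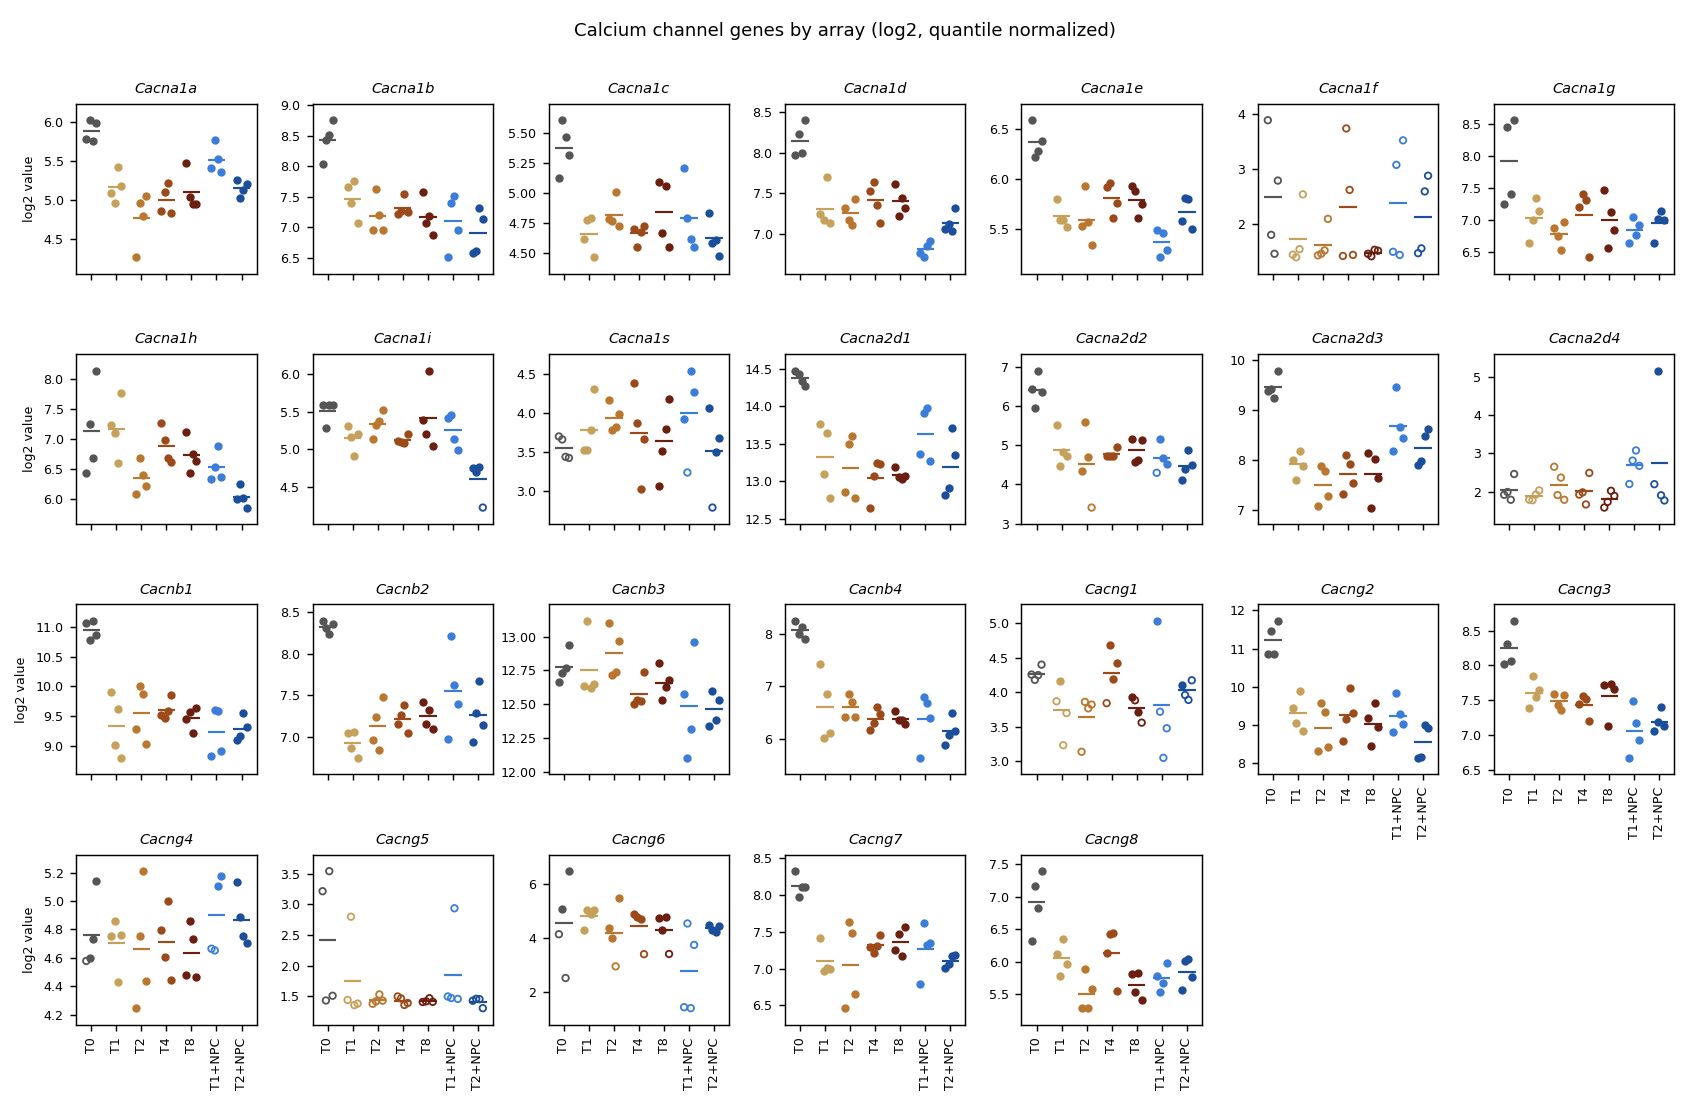
Log2 level (y axis) of the 26 calcium channel genes on each of the 28 arrays, by group; points are arrays, bars are group means, and open circles were not well above background. All injured arrays of Cacng2, Cacnb1 and Cacnb4, with or without cells, lie below the T0 arrays, as do those of Cacna2d3 but for T1_NPC replicate 2, the Cacnb3 groups overlap, and Cacna1f and Cacng5 are drawn in open circles throughout.

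The partners that hold channels in place were mixed. Of 15 genes of the axon initial segment and the node, 9 were lower and 2 higher at T1 (median -0.85) and 7 lower and 2 higher at T8 (median -0.39). Cntnap1, which builds the paranodal junction, changed by -1.77 at T1, Ank3, which anchors sodium channels, by -0.85, and Sptbn4, the spectrin beneath it, by -1.17. Nfasc, the axonal adhesion molecule of the same complex, was not called (0.15, adjusted p = 0.609). Gldn, secreted by Schwann cells at peripheral nodes, rose by 2.78. Of 17 regulators and release-site partners of calcium channels, 9 fell and 1 rose at T1 (median -0.67), and 11 fell and 1 rose at T8 (median -0.80). The largest fall was that of Snap25, Cabp1, a calcium-binding protein of Cacna1a and Cacna1c channels, changed by -1.75, and Rem1, a small GTPase that restrains calcium channels, rose by 0.45.

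After transplantation directly at the injury, few channel genes were called against T1. In T1_NPC against T1, 5 of the 40 members were called, or 12.5%, beside 11.9% of all features, and the median over members was 0.05. This count rests on the average of probes. The Cacna1b probe above background on all 28 arrays was lower by itself (-0.71, limma adjusted p = 0.0493). Of the 4 Cacna1e probes, those at -0.57 (0.0160) and -0.63 (0.0364) were called lower, and those at 0.21 and -0.06 were not called. Cacnb2 was higher (0.62 ± 0.19, adjusted p = 0.0348), at 7.05, 6.87, 7.06 and 6.75 in T1 and 6.98, 8.21, 7.62 and 7.40 in T1_NPC. Cacna1d was lower (-0.50 ± 0.14, 0.0187), at 7.24, 7.16, 7.70 and 7.13 in T1 and 6.76, 6.71, 6.85 and 6.91 in T1_NPC. Of the pair only Cacna1d had arrays that did not overlap, and its probes disagreed, at -0.85 and -0.15. Neither Cacnb2 probe was called by itself. The probe above background on all 28 arrays stood at 0.33 (limma adjusted p = 0.423). The other, above background on 20 arrays, stood at 0.91 (0.0812).

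Cacng3 was lower (-0.54 ± 0.17, adjusted p = 0.0367), at 7.38, 7.85, 7.55 and 7.64 in T1 and 6.67, 7.49, 7.17 and 6.93 in T1_NPC. Scn11a was lower (-0.80 ± 0.25, 0.0380), at 4.91, 5.13, 5.29 and 4.62 in T1 and 3.31, 5.22, 4.13 and 4.11 in T1_NPC, where only replicate 2 was above background. Both overlapped. The fifth, Scn4a, was below background on all T1_NPC arrays (1.36, 1.37, 1.36 and 1.63) and on 3 of the 4 T1 arrays, so it has no fold. Each of these calls except that of Scn4a was lost when certain single arrays were left out. Cacna1d lost it without T1 replicate 3 (-0.37, adjusted p = 0.0836) and Cacnb2 without T1 replicates 2, 3 or 4 or T1_NPC replicates 2 (0.40, 0.149) or 3. Cacng3 lost it without T1 replicates 2, 3 or 4 or T1_NPC replicates 1 (-0.41, 0.109) or 4, and Scn11a without T1 replicates 1, 2 or 3 or T1_NPC replicates 1 (-0.50, 0.129), 3 or 4. Without T1 replicate 3 only 1 of the 5 was left. With slide as a random block Scn4a was the only member called, and with only T1 and T1_NPC in the fit as well. With normexp none of the 5 was called, but Cacna2d3 (0.58, 0.0487) and Cacna2d4 (0.18, 0.0216) were, both higher. With the scans under their deposited samples 0 were called. Of the 5, 4 were lower and 1 higher, whereas scaling the scans to the 75th percentile of each array called 9, of which 2 were lower and 7 higher. That scaling called 7397 of the 35469 features.

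Cacng6 was above background on all 4 T1 arrays (4.30, 5.02, 4.90 and 5.05) and on no T1_NPC array (1.45, 4.54, 1.42 and 3.75). T1_NPC replicate 2 lay within the T1 range, so the arrays overlapped. The bound from the group means was 2.10-fold lower, which does not take their spread into account. The change of Cacng6 was -2.03 and missed the threshold (limma adjusted p = 0.0581). Scn8a missed it as well (0.87, adjusted p = 0.0834, 95% interval 0.20 to 1.54), and this difference came from its probe below background (1.38), while the other stood at 0.35. Cacna2d3 was higher by 0.77 without a call (0.0630, 0.22 to 1.33), with every T1_NPC array above the highest T1 array.

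After transplantation at 1 week, Cacna1i alone was called in T2_NPC against T2, 1 of 40 members where 9.47% of all features were called, and the median over members was -0.04. With the undisputed arrays (2 of T2 and all 4 of T2_NPC) 7 members were called, all lower. That fit called 7399 of the 35469 features, and the median over members was -0.25. The 7 members were Cacna1i, Cacnb1, Cacnb4, Cacna1h, Cacng7, Scn11a and Scn3b, with changes from -0.74 to -0.45. The measured probe of Cacna1c was lower by itself (-0.71, adjusted p = 0.00193). Cacna1i, the T-type gene of thalamic and other neurons, read 5.14, 5.33, 5.38 and 5.53 in T2 and 4.75, 4.70, 4.76 and 4.23 in T2_NPC, the last array not above background. The groups did not overlap, and the change was -0.73 ± 0.17 (adjusted p = 0.00807, 95% interval -1.08 to -0.38, 1.66-fold lower). It was -0.74 (0.0170) with the undisputed arrays and -0.73 (0.0831, not called) with the scans under their deposited samples. Cacna2d3 again lay higher without a call (0.74, adjusted p = 0.0829, interval 0.19 to 1.30), with all T2_NPC arrays, 7.89 to 8.62, above the T2 arrays, 7.07 to 7.87.

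The genes that fell after injury stayed low in transplanted cords. Against T0, 26 members were lower and 1 higher in T1_NPC (52.7% of all features called, 29.9% lower and 22.8% higher), and 30 lower and 2 higher in T2_NPC (47.7%, 26.5% and 21.2%). Scn1a had means of 9.39 in T1_NPC and 8.42 in T2_NPC against 11.54 at T0, and Scn7a had means of 9.16 and 10.60 against 7.78. Scn7a differed from the time-matched injured group by 0.04 and -0.28, neither called. The difference between the effects of early and later transplantation was called in 0 of 40 members by limma and in 0.299% of all features. At an unadjusted p under 0.05 by limma there were 4 members, beside 3969 of the 35469 features. Of the 14 neuronal marker genes, 0 were called in either comparison, with summed levels of 16.70 to 17.59 in T1_NPC and 16.40 to 17.25 in T2_NPC, both overlapping the injured groups.

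**Figure D5:**
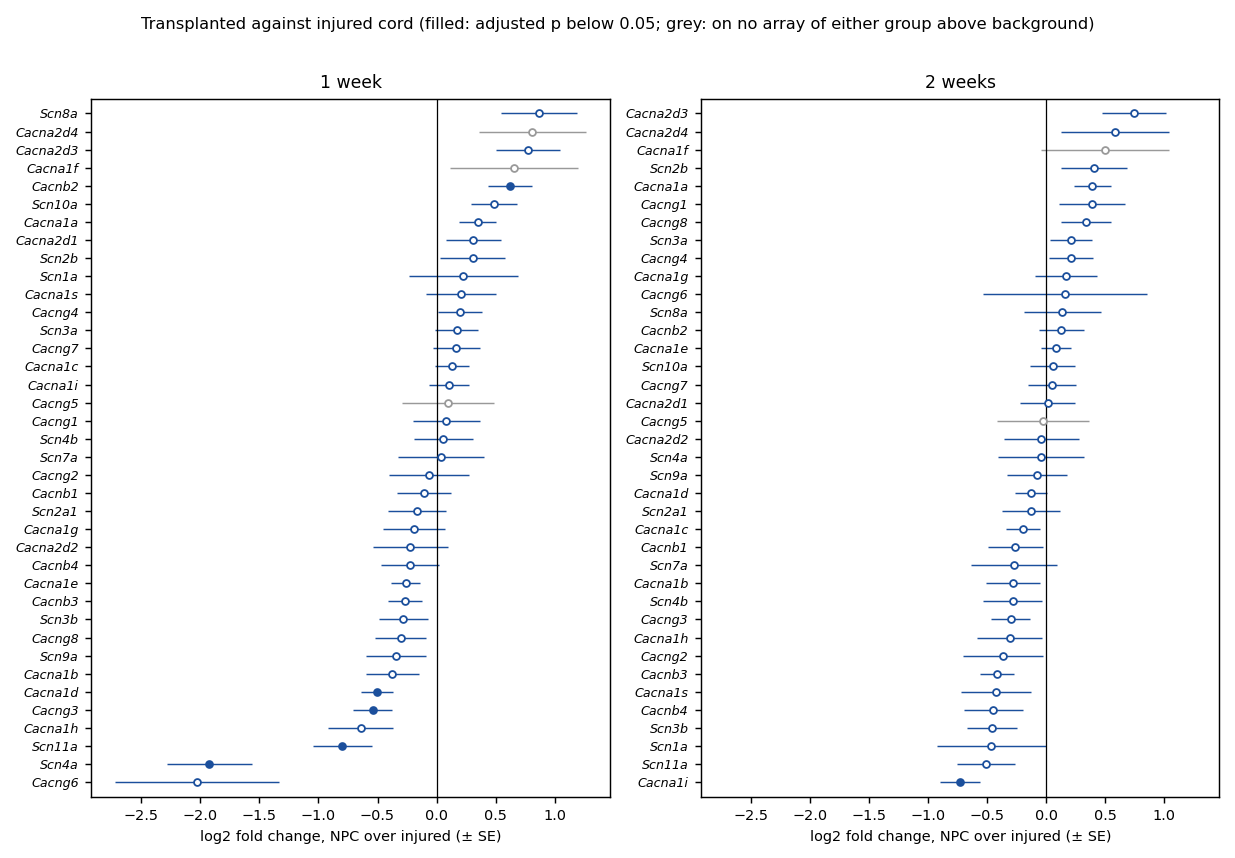
Log2 change (x axis, log2 units; bars are the standard error of the limma fit) of 38 of the 40 channel genes in T1_NPC against T1 and in T2_NPC against T2, 4 arrays a group; filled points were called at an adjusted p under 0.05 and grey points had no array above background in either group. Most genes lie near 0, with medians of 0.05 and -0.04, and Cacna1i is the only gene called at T2.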

How the data were processed

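Members, gene lists and tests were chosen with earlier results of these data known. The authors deposited, per array, the scanner output of Agilent Feature Extraction 10.7.1.1, whose intensity values are background-corrected but not normalized between arrays, and a value table of log2 values that they had quantile normalized. The value table was the main source. The scans gave the background flags, slide and scan session, each column being linked to the scan of the same rank order, and the alternative values. Of 45018 spots, 1639 control spots were left out, and 43379 spots were averaged to 41012 probes and these to 35469 features by gene name, with no filter on low values.

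All 28 columns entered a single limma fit with group means as its coefficients (limma 3.58.1, data.table version 1.17.8 and jsonlite 2.0.0 under R 4.3.3), with empirical Bayes moderation (2.26 prior degrees of freedom) and Benjamini-Hochberg adjustment over all features. The fit was tested on simulated data. Errors are standard errors of the fit, and intervals are 95% and unadjusted. The number of arrays limits the precision. A gene below background on every array of a group has only a bound there, computed against the higher of its own level and the lowest level above background on each array.

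Values by group are given for members called against T0 at all 4 times with a log2 change of at least 1 at some time, called higher at any time, or called between injured or transplanted groups. Values per array are given for the largest falls and rises at T1 and T8 and for the last of these kinds. Other genes named were chosen after their values were seen. Alternatives were other normalizations and sources of the values, the undisputed arrays, other summaries of probes, filters, moderation, subsets of groups, slide, session and replicate blocks and leaving out each array. Values within each scan session were added after seeing the data. Same-numbered arrays deviated together (r over 0.1) in 19 of 84 pairs. The mean r was -0.0033 for same-numbered pairs and 0.0016 for other pairs. This gave no sign that the numbers pair the samples, but cannot settle it while the sample of 16 arrays is disputed. Promoters came from RefSeq (GRCr8), probe positions from the array annotation (rn4). A few genes are counted among the members or lists but are not reported here by themselves.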

Additional observations from a re-analysis of the deposited data

Results flagged for a closer look

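In 6 of 140 groups of 4 arrays that were tested, the highest or lowest array stood apart by Dixon's criterion, where chance gives about 1 in 20. Scn4b read 10.2 on T1_NPC replicate 2 against 9.43 to 9.53 on the others. Scn10a read 5.66 on T2 replicate 2 against 4.71 to 4.73, and 4.89 on T2_NPC replicate 4 against 5.05 to 5.06. Scn3b read 12.1 on T2 replicate 4 against at least 13 on the others. Cacng3 read 7.14 on T8 replicate 2 against 7.66 to 7.74, and Cacng7 read 7.41 on T1 replicate 1 against 6.97 to 7.00. The change of Scn7a against T0 differed between times, by 1.75 between T2 and T1 and by 2.73 between T8 and T1, both called by limma.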

How the results depend on the processing

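Leaving out each array in turn gave 25 to 28 members lower than T0 at T1, 28 to 31 at T2, 27 to 29 at T4 and 26 to 29 at T8, with 1 to 2 higher at each time. It gave 0 to 1 called from T1 to T2 (0 without T1 replicate 1 or T2 replicate 1), 0 from T2 to T4 and from T4 to T8, and 1 from T1 to T8. It gave 1 to 6 in T1_NPC against T1 (1 without T1 replicate 3), 1 to 3 in T2_NPC against T2 (3 without T1_NPC replicate 2), 23 to 28 lower and 1 to 2 higher in T1_NPC against T0, 29 to 31 and 1 to 2 in T2_NPC against T0, and 0 for the difference of the transplantation effects. With the scans under their deposited samples 0 members were called in every comparison but 1, lower in T2_NPC against T0. There the sign turned for Cacna1g (0.00988) and Cacng8 (0.0797) at T1, for Cacna1c (0.0128), Cacna1h (0.134) and Scn9a (0.0254) at T2, and in T1_NPC against T1 for Cacna1d (0.0429), Cacnb2 (-0.231), Scn11a (0.348) and Scn4a (1.14), and the cause was not tested. With the undisputed arrays alone 17 were lower at T1, 1 higher at T4, 2 higher at T8, 0 called from T1 to T2, 2 from T1 to T8 and 7 in T2_NPC against T2. No T1_NPC array is undisputed, so that comparison could not be made. Within the first scan session 0 were higher at T1, 1 at T2 and 1 at T4, 19 lower at T4 and 0 called from T1 to T2, and from T1 to T8 Cacnb4 was called lower in place of Scn7a. Within the second 1 was higher at T2 and 1 at T4, and 1 was called from T2 to T4. The scans scaled to the 75th percentile called 9 in T1_NPC against T1 (beside 7397 of all features), 2 in T2_NPC against T2, 2 higher in T1_NPC against T0 and 1 for the difference of effects. This scaling moved the median of all features to -0.27 at T1 and -0.16 at T4 against T0, beside member medians of -0.92 and -0.82. It moved the share of lower calls among all features from 53.7% to 28.7% in T1_NPC against T1, from 46.3% to 32.1% from T1 to T2, from 45.4% to 34.1% from T1 to T8 and from 62.5% to 95.2% for the difference of effects, where the quantile-normalized scans are the first value. Normexp, computed on median signals because 20 scans hold no mean signal, gave 1 higher at T4, 2 called in T1_NPC against T1 (neither among the 5), 2 in T2_NPC against T2 and 2 higher in T1_NPC against T0. With only the groups compared in the fit 1 was higher at T2 and 1 at T4, 0 called from T1 to T2, 1 in T1_NPC against T1, 2 higher in T1_NPC against T0, 1 higher in T2_NPC against T0 and 1 called for the difference of effects. The brightest probe gave 2 higher at T1, 2 at T8, 2 called from T1 to T8, 2 in T2_NPC against T2 and 2 higher in T1_NPC against T0. Leaving out dim probes gave 2 higher at T1, 2 at T8, 2 called in T2_NPC against T2 and 2 higher in T1_NPC against T0. Slide as a fixed block gave 1 higher at T2 and 1 at T4, and as a random block (correlation 0.173) 1 called in T1_NPC against T1 and 1 higher in T2_NPC against T0. Slide or session as a fixed block could not be fitted for transplantation. The replicate block left 27 members lower at T1 and kept the direction and call of all 168 single-gene results, and 5 of 28 arrays had their best partner under their own number.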
